A study of Mus musculus with 6 samples.

Results

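Myc is the transcription factor that T cells induce on activation, and many of the genes it drives build ribosomes. Ribosome biogenesis starts in the nucleolus, where RNA polymerase I transcribes the ribosomal RNA precursor. Small nucleolar ribonucleoproteins (snoRNPs) of the box C/D class then methylate that RNA, those of the box H/ACA class convert uridine to pseudouridine, and large assemblies of further factors fold, cut and package it into the small and large subunits. Dividing T cells need many ribosomes, so these genes are widely read as a sign of growth. The set described here holds 40 genes of 23091 gene symbols in the files: Myc itself and 39 ribosome biogenesis genes, chosen by name and sorted into 8 roles. All 40 are listed for every library, some of them at a value of 0.

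Sequenced RNA came from CD4 T cells of mice, driven toward the Th9 state, a helper state named for its cytokine interleukin 9, with or without interleukin 1β (IL-1β). All cells came from wild-type C57/Bl6j mice aged 7 weeks, as naive T cells of spleen and nodes. All were grown on CD3/CD28 plates with IL-4 at 20 ng/ml, TGFβ at 2 ng/ml and a blocking antibody to interferon γ. The groups were IL-1β at 10 ng/ml and no IL-1β, each after 1 h of culture, at day 3 of culture, and in vivo. The in vivo cells carried CD45.2, were cultured for 3 days, injected into CD45.1 hosts and recovered by sorting after 1 week. IL-1β was thus given in culture, before injection. The labels name no tissue for this sort. Each of the 6 groups is 1 library, so no group has a replicate and a ratio between 2 libraries carries no p-value. Values are FPKM (fragment numbers per unit of transcript length and of library size) made by the authors, each with a lower and an upper bound of a confidence level that the labels and headers do not name.

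Depth is not stated and could not be read from FPKM. The 1 h libraries were depleted of rRNA and the other 4 were poly(A)-selected, per the labels' protocols, so stage and RNA selection cannot be told apart between 1 h and day 3. In the 1 h libraries the rRNA precursor Rn45s took 24.7% of all FPKM with IL-1β and 41.3% without, against 0.0351% to 0.0657% in the poly(A) libraries. Cd3e, a subunit of the T cell receptor complex, and Cd4 were above 0 in all 6 libraries. The summed FPKM of 13 T cell identity genes was 2772 with IL-1β and 2889 without in vivo, and 3225 with IL-1β and 2989 without at day 3. The in vivo libraries also held transcripts of other cells. The summed FPKM of 15 epithelial, stromal and endothelial markers was 17347 with IL-1β and 6669 without in vivo, and 33.8 with IL-1β and 36.9 without at day 3, with Sftpc, the lung surfactant protein C gene, the most abundant. The summed FPKM of 16 myeloid markers was 3048 with IL-1β and 1334 without in vivo, and 182 with IL-1β and 139 without at day 3. In bulk samples, fewer cells of a type and less RNA per cell cannot be told apart.

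Myc binds the E-box, whose best known form is CACGTG. Promoters of 33 of the 40 genes, taken from RefSeq on GRCm38.p6 as 250 bases before to 50 after the gene start, were searched for it. The motif is its own reverse complement, so both strands were covered. It was found in 6 of the 33 genes (18.2%), against 12.3% of 6479 genes that reached 5 FPKM in a poly(A) library and 8.09% of all 27025 genes. The form CACGCG, searched on both strands, was found in 13 of the 33 genes (39.4%), against 21.0% of the expressed genes and 10.5% of all genes. The 6 windows around CACGTG are shown because they carry the motif by which Myc is known to bind, with the motif in capitals and each sequence on the strand of its gene.
Mybbp1a, plus strand, chr11:72441355-72441376: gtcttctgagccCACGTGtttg
Nop2, plus strand, chr6:125131811-125131840: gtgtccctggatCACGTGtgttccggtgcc
Pes1, plus strand, chr11:3963965-3963994: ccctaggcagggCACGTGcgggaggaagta
Tsr1, plus strand, chr11:74898092-74898121: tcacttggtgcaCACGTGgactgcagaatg
Utp20, minus strand, chr10:88826765-88826789: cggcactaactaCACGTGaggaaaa
Wdr43, plus strand, chr17:71616220-71616249: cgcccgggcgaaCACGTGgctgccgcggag
In 5 of the 6 genes the motif lay after the gene start, and in Nop2 it began 60 bases before it. The windows of Mybbp1a and Utp20 end where the promoter table ends. A match describes these letters only. The median GC content was 58% in promoters of the set, 61% in those of expressed genes and 52.7% in all.

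Myc was among the steadiest of the 40 genes over the poly(A) libraries. It lies on chromosome 15 from 61816896 to 61821916 (mm9). Its level was 8.98 FPKM with IL-1β and 6.66 FPKM without at 1 h, 69.2 FPKM with IL-1β and 75.9 FPKM without at day 3, and 82.5 FPKM with IL-1β and 70.9 FPKM without in vivo. Its highest poly(A) value was 1.19 times its lowest, and the 4 deposited intervals overlapped. Among the 38 genes above 0 in all 4 poly(A) libraries, this ratio ran from 1.16 for Bop1, a pre-60S factor, to 4.01 for Polr1b, the second largest subunit of RNA polymerase I.

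**Figure D1:**
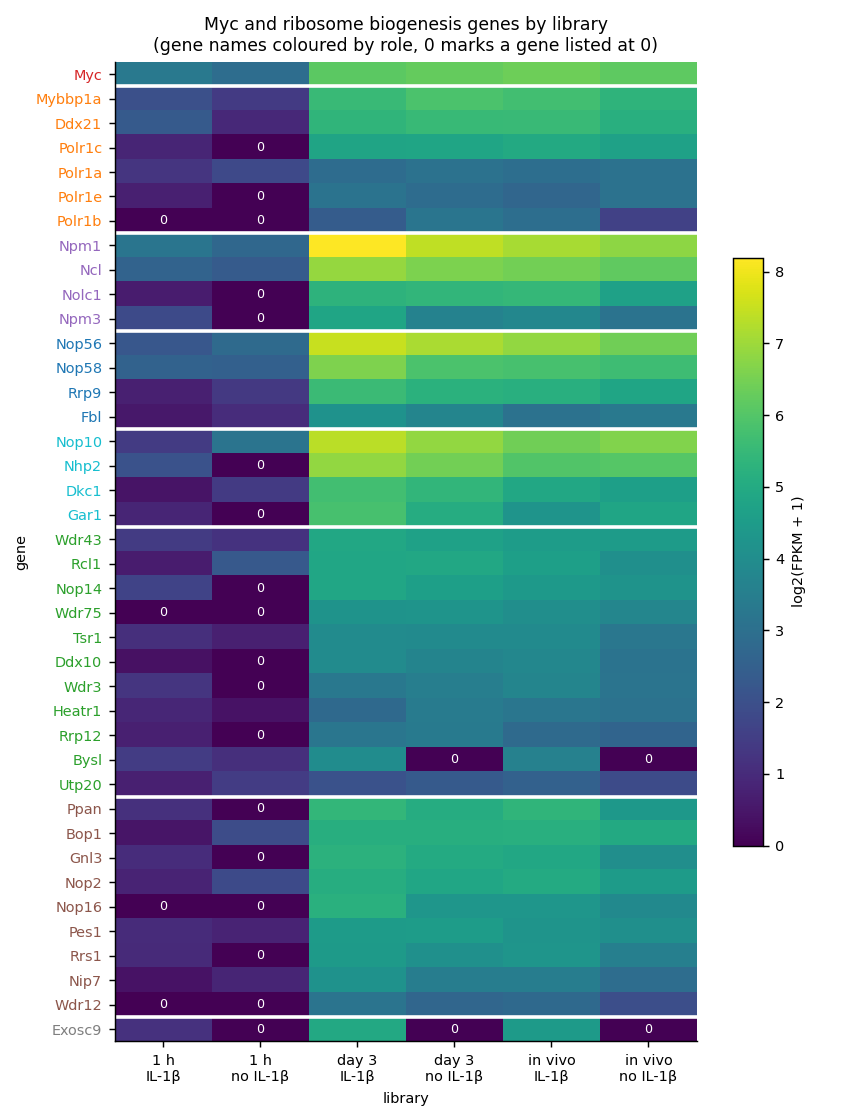
Level of each of the 40 genes (down the page, names coloured by role) in each of the 6 libraries (across) as log2(FPKM + 1), with 0 written where a gene is listed at 0. The 1 h columns are dark, with 4 genes at 0 with IL-1β and 18 without, while in the poly(A) columns Bysl and Exosc9 are at 0 in both libraries without IL-1β.

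The set was far higher at day 3 than at 1 h, and so were nearly all other genes. Its summed FPKM was 69.0 with IL-1β and 60.3 without at 1 h, 1852 with IL-1β and 1420 without at day 3, and 1298 with IL-1β and 1032 without in vivo. Only genes with 5 FPKM or more in either library of a pair were compared. Genes are called counted (higher or lower) where FPKM + 1 differed at least 2-fold with deposited intervals that did not overlap. At day 3 against 1 h with IL-1β, 38 of 38 genes compared were counted higher, where 95.5% of all genes were, and 0 lower, where 0.595% were. Without IL-1β, 37 of 37 were, where 95.7% of all genes were, and 0 lower, where 0.299% were. These shares are close to the background. The median log2 ratio of FPKM + 1 was 3.77 for the set and 3.25 for all genes with IL-1β, and 3.70 for the set and 3.44 for all genes without.

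Myc had the smallest ratio among genes with at least 5 FPKM at both times, 2.82 on the log2 scale with IL-1β and 3.33 without. Its direction turned with IL-1β when the libraries were scaled to equal medians (-0.33) or the length trend was removed (-0.73), and without IL-1β it was at 0.04 and -0.41. Nop10, a box H/ACA core protein, had the largest with IL-1β, at 160.5 FPKM at day 3 and 1.68 FPKM at 1 h, a log2 ratio of 5.91. Its FPKM lies above its own upper bound in the poly(A) libraries. Dkc1, the pseudouridine synthase, had 51.3 FPKM at day 3 and 0.346 FPKM at 1 h with IL-1β, a log2 ratio of 5.28. Without IL-1β, 17 of the 37 genes compared were listed at 0 at 1 h, among them Nhp2, Nolc1, Ppan, Gar1, Gnl3, Polr1c and Nop14. No fold is given for these, and the 20 others had a median log2 ratio of 3.43, against 3.03 for all genes compared that were above 0 at both times.

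IL-1β at 1 h gave little to compare, since 6 of the 40 genes reached 5 FPKM. None was counted higher, where 7.72% of all genes were, and none lower, where 0.214% were. The 6 had a median log2 ratio of 0.17, against 0.30 for all genes. That median was below 0 with equal medians (-0.29) and with the length trend removed (-0.25). The ratio of Myc was 0.38 and that of Npm1, the nucleolar chaperone nucleophosmin, was 0.45, with overlapping intervals in both. Over the genes of the set above 0, 36 with IL-1β and 22 without, the median interval reached to either side by 113% and 120% of FPKM. The interval of Myc ran from 5.31 to 13.1 FPKM with IL-1β and from 0 to 13.3 FPKM without. That of Npm1 ran from 2.42 to 14.3 FPKM with IL-1β and from 0 to 16.6 FPKM without. Differences of the size seen for Myc and Npm1 were not detectable here.

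At day 3 with IL-1β, the snoRNP proteins and the abundant chaperones had higher values, and the RNA polymerase I group mostly had lower ones. Of 39 genes compared, 2 were counted higher, where 1.29% of all genes were, and 0 lower, where 2.15% were. Both, Bysl and Exosc9, are listed at 0 without IL-1β. The median log2 ratio was 0.26 for the set and -0.05 for all genes. Ratios were above 0 for 25 of the 39 genes, against 46.7% of all genes. With the interval criterion alone, 8 of the 39 genes were higher, where 5.69% of all genes were, and 2 were lower, where 12.7% were. Bysl and Exosc9 are among the 25 and among the 8. As they are listed at 0 without IL-1β, they could only fall above 0. Without genes listed at 0 the median was 0.26 for the set and -0.05 for all genes.

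Among the nucleolar chaperones, Npm1 had the highest level of the set. It had 292 FPKM with IL-1β and 169 FPKM without at day 3, and its intervals stood apart at a log2 ratio of 0.79. Npm3, a related chaperone, had 27.1 FPKM with IL-1β and 11.3 FPKM in its absence, which is a log2 ratio of 1.19, but its intervals overlapped. Ncl, which encodes nucleolin, had 118 FPKM with IL-1β and 93.9 FPKM without, with intervals apart.

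All 4 box C/D proteins had ratios above 0, with a median of 0.39. Nop56, a core protein of these particles, had 180 FPKM with IL-1β and 140 FPKM without. Its partner Nop58 had 97.3 FPKM with IL-1β and 58.2 FPKM without. Both pairs of intervals stood apart, while those of Fbl, the methyltransferase fibrillarin, overlapped. All 4 box H/ACA proteins also had ratios above 0, with a median of 0.44, and all 4 pairs of intervals overlapped. Gar1 of that class had 55.5 FPKM with IL-1β and 32.6 FPKM without.

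Of the 9 pre-60S factors 7 had ratios above 0, with a median of 0.33, and of the 10 small subunit factors compared 5 did, with a median of 0.01. Nop16 and Nip7, both pre-60S factors, had intervals apart at log2 ratios of 0.91 and 0.70. Bop1, Pes1 and Wdr75 had the ratios nearest to 0, between -0.02 and -0.01. In the RNA polymerase I group 1 of 6 ratios was above 0, with a median of -0.17. Polr1b had 4.23 FPKM with IL-1β and 8.14 FPKM without, and its intervals stood apart at a log2 ratio of -0.81. Heatr1, a small subunit processome protein, had 5.99 FPKM with IL-1β and 9.65 FPKM without, also with intervals apart, at -0.61. The ratio of Myc was -0.13.

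Transcript length moved with these ratios. Across 7240 genes the Spearman correlation of the day 3 ratio with the longest annotated transcript was -0.58, and across the 37 genes of the set above 0 it was -0.53, as a description across genes of 2 libraries. The 18 genes with the shorter transcripts had a median log2 ratio of 0.35 and the 19 with the longer a median of -0.02. Of the 12 snoRNP proteins, chaperones and scaffolds, Ncl, Nop58, Nolc1 and Dkc1 fell in the longer group, as did Heatr1 and Polr1a. With the length trend of all genes removed, 31 of 39 ratios were above 0 and 8 below, with Bysl and Exosc9 among the 31. The RNA polymerase I group then had 3 above and 3 below, with a median of 0.06. In vivo the same correlation was -0.01 across 7884 genes and 0.08 across the 37. The part of length in the day 3 ratios of single genes was not tested.

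**Figure D2:**
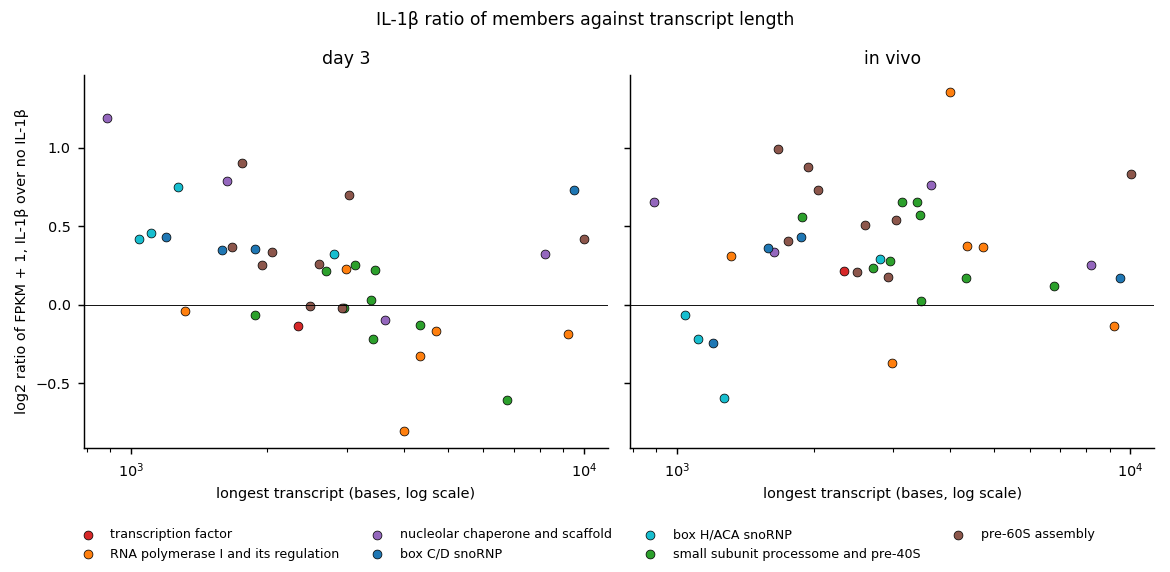
Log2 ratio of FPKM + 1 with IL-1β over without (vertical) against the longest annotated transcript in bases (horizontal, log scale), for the 37 genes above 0 in both arms, coloured by role, at day 3 (left) and in vivo (right). At day 3 shorter transcripts lie higher, with a Spearman correlation of -0.53, and in vivo no such slope is seen, with 0.08.

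In vivo, cells that had been given IL-1β in culture had higher values for most of the set, in the chaperone, small subunit and pre-60S groups for every gene compared. Of 39 genes compared 3 were counted higher, where 6.23% of all genes were, and 0 lower, where 3.48% were. They were Bysl, Exosc9 and Polr1b. The median log2 ratio was 0.36 for the set and 0.03 for all genes, and 33 of 39 ratios were above 0, against 52.7% of all genes. With the interval criterion alone 7 genes were higher, where 9.91% of all genes were, and 0 lower, where 8.33% were. Bysl and Exosc9, listed at 0 without IL-1β, are among the 33 and the 7 and could only fall above 0. Without genes listed at 0 the median was 0.34 for the set and 0.03 for all genes.

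All 9 pre-60S factors had ratios above 0, with a median of 0.54. Ppan had 40.5 FPKM with IL-1β and 19.8 FPKM without, with intervals apart at a log2 ratio of 1.00, just under the 2-fold limit. Gnl3, the GTPase nucleostemin, had 29.4 FPKM with IL-1β and 15.5 FPKM without, with intervals apart at 0.88. Both were counted higher when the libraries were scaled to equal T cell identity genes, which also raised the median of all genes to 0.19. All 10 small subunit factors compared also had ratios above 0, with a median of 0.42, from 0.03 for Wdr43 upward. They include Bysl, which is listed at 0 without IL-1β. The 4 chaperones and scaffolds were above 0 as well, with a median of 0.49. Nolc1, a nucleolar scaffold, had 42.6 FPKM with IL-1β and 24.7 FPKM without, with intervals apart at 0.76.

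Polr1b turned round between the stages. In vivo it had 6.77 FPKM with IL-1β and 2.03 FPKM without, with intervals apart at a log2 ratio of 1.36. At day 3 the library with IL-1β was the lower one. With a pseudocount of 5 the in vivo ratio was 0.74 and Polr1b was no longer counted. The other RNA polymerase I genes had in vivo ratios between -0.37 for Polr1e and 0.38 for Mybbp1a, and their intervals overlapped.

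Of the box H/ACA proteins 1 of 4 had a ratio above 0, Dkc1 at 0.30, with a median of -0.14 and overlapping intervals in all 4. Gar1 had 17.9 FPKM with IL-1β and 27.4 FPKM in its absence, a log2 ratio of -0.59. Nhp2 was near 0 at -0.07, and Heatr1 was at 0.12. The ratio of Myc was 0.22. Beside these ratios, 12 of 14 epithelial, stromal and endothelial markers and 4 of 14 myeloid markers compared were counted higher with IL-1β in vivo. Their part in the ratios of the set was not tested.

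**Figure D3:**
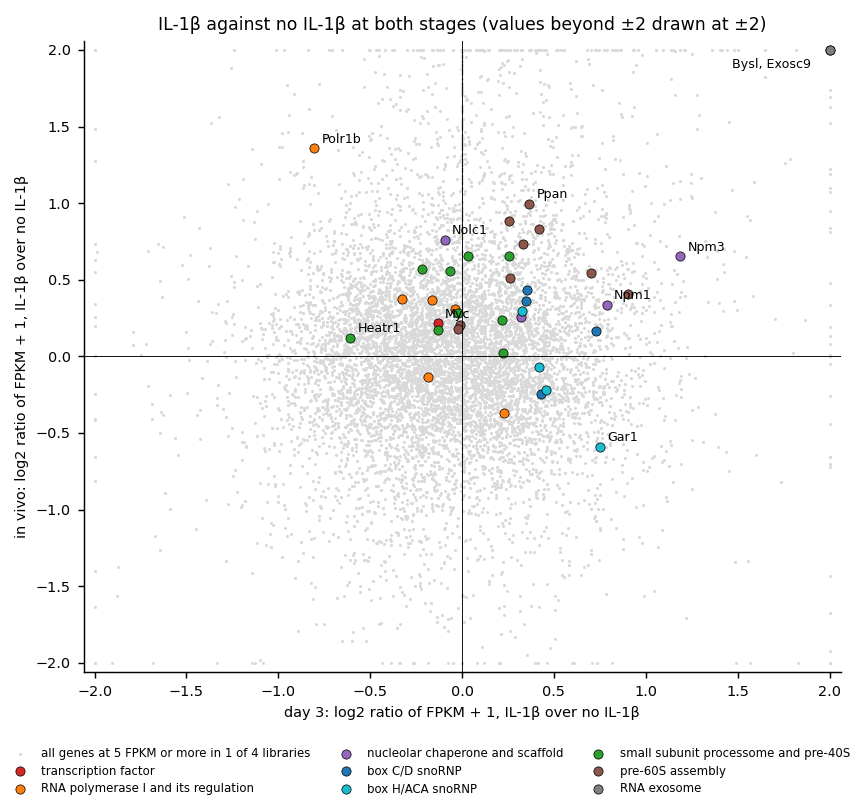
Log2 ratio of FPKM + 1 with IL-1β over without, at day 3 (horizontal) and in vivo (vertical), for the set coloured by role and for all genes at 5 FPKM or more in a poly(A) library in grey, with values beyond 2 drawn at 2. Of the 39 coloured points 20 lie in the upper right, among them Bysl and Exosc9, which are listed at 0 without IL-1β. Polr1b is the farthest from the centre at upper left with -0.81 and 1.36, and Gar1 is at lower right with 0.75 and -0.59.

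The day 3 and in vivo comparisons share no library. Ratios with IL-1β were above 0 at both stages for 20 of 39 genes (51.3%), against 23.3% of 8901 genes. The 20 include Bysl and Exosc9, which are listed at 0 without IL-1β and could only fall above 0. Ratios were below 0 at both stages for 1 gene, Polr1a (2.56%), against 25.8% of all genes. In limma's moderated test over the 4 poly(A) libraries with stage as covariate, which has 1 residual degree of freedom before moderation, 2 of 39 genes were called higher with IL-1β and 0 lower after Benjamini-Hochberg adjustment over all genes, where 0.303% of all genes were called higher and 0.0786% lower. They were Exosc9 and Bysl, higher with IL-1β at both stages. Each reached 5 FPKM only in the poly(A) libraries with IL-1β and is listed at 0 in those without. The test therefore cannot support a difference for Exosc9 or Bysl. Their differences on the log2(FPKM + 1) scale, 4.71 ± 0.37 and 3.80 ± 0.37 (SE), depend on the pseudocount, because both are listed at 0 without IL-1β. Neither was called without a minimum of 5 FPKM or with all 6 libraries, and no gene of the set was called when genes listed at 0 were left out. Npm3 had a difference of 0.92 ± 0.37 (SE) and was higher at both stages, but its limma adjusted p was 0.511.

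Bysl and Exosc9 were present in the poly(A) libraries with IL-1β and at 0 in those without. Bysl, which encodes the pre-40S factor bystin, had 1.74 FPKM with IL-1β and 1.16 FPKM without at 1 h. It had 15.01 FPKM with IL-1β and 0 without at day 3, and 11.1 FPKM with IL-1β and 0 without in vivo. Exosc9, a core subunit of the RNA exosome, had 1.25 FPKM with IL-1β and 0 without at 1 h, 29.7 FPKM with IL-1β and 0 without at day 3, and 21.3 FPKM with IL-1β and 0 without in vivo. Both genes overlap an abundant neighbour in the files. Bysl overlaps Ccnd3, which encodes cyclin D3 and had 233 FPKM with IL-1β and 301 FPKM without at day 3, and 177 FPKM with IL-1β and 344 FPKM without in vivo. Exosc9 overlaps Ccna2, which encodes cyclin A2 and had 121 FPKM with IL-1β and 131 FPKM without at day 3, and 42.5 FPKM with IL-1β and 120 FPKM without in vivo.

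Over all genes, 6 had 0 FPKM in both poly(A) libraries without IL-1β while at 5 FPKM or more in both with it, and 2 the other way. Of these 8 genes 6 overlap another entry, and the share of all genes that do was not counted. In the set, 8 of the 40 genes overlap an expressed entry. Among them is Nop56, which overlaps Idh3b (64.5 to 81.5 FPKM in the poly(A) libraries) and is not at 0 in any library. One of the 2 is Mxd3, a Myc antagonist of the Mxd family, at 0 with IL-1β and 40.5 FPKM without at day 3, and at 0 with IL-1β and 41.0 FPKM without in vivo. An exact 0 in FPKM can be a failed estimate, and the files do not tell it from a true absence. How reads were shared between overlapping entries was not tested.

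**Figure D4:**
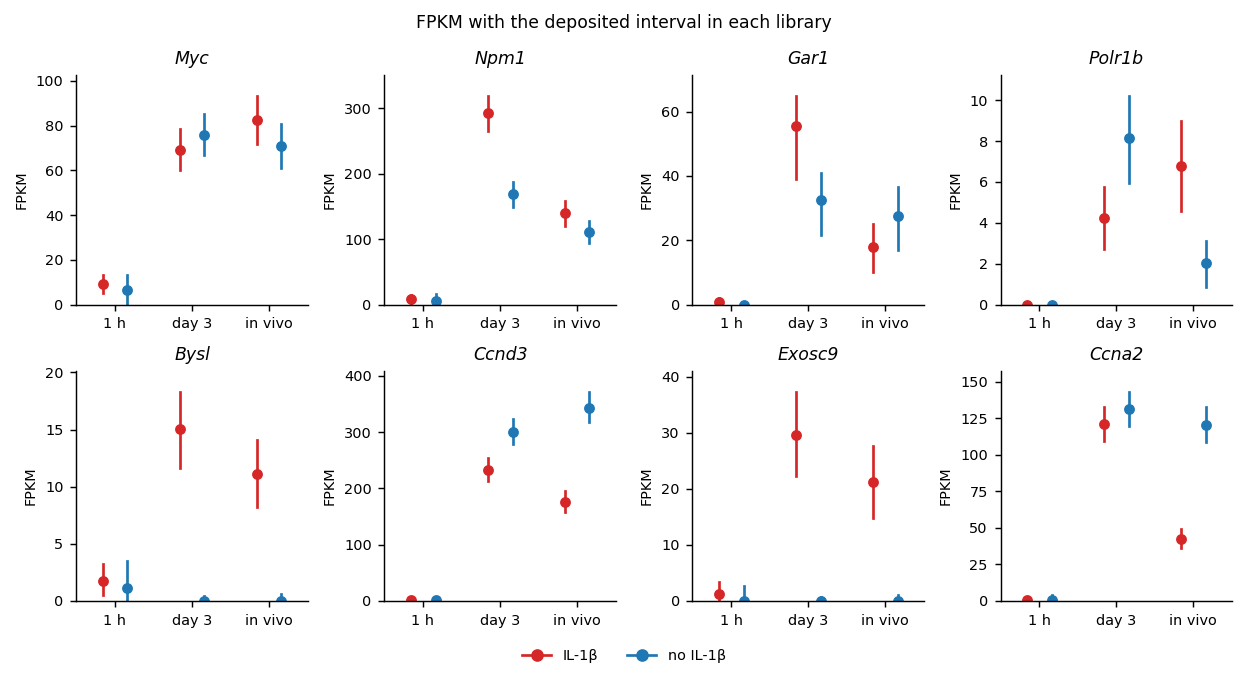
FPKM (points) with the deposited interval (bars) in each library for Myc, Npm1, Gar1, Polr1b, Bysl, Exosc9 and the overlapping neighbours Ccnd3 and Ccna2, with IL-1β in red left of no IL-1β in blue at each stage. The poly(A) intervals of Myc overlap, and Bysl and Exosc9 without IL-1β lie at 0 at day 3 and in vivo while their neighbours do not.

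In vivo against day 3, most of the set had lower values in both arms, while Myc did not. With IL-1β, 0 of 39 genes compared were counted higher, where 12.0% of all genes were, and 2 lower, where 5.87% were. The median log2 ratio was -0.34 for the set and 0.04 for all genes, and 29 of 39 ratios were below 0. Without IL-1β, 0 of 37 were counted higher, where 2.13% of all genes were, and 1 lower, where 0.665% were. There the median was -0.44 for the set and -0.03 for all genes, and 35 of 37 ratios were below 0. The ratio of Myc was 0.25 with IL-1β and -0.10 without. The arms share no library. Ratios were below 0 in both arms for 26 of 39 genes (66.7%), against 30.1% of 8901 genes.

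With the interval criterion alone, 9 of 39 genes were lower with IL-1β, where 14.1% of all genes were, and 0 higher, where 20.8% were. Without IL-1β 8 of 37 were lower, where 3.51% of all genes were, and 0 higher, where 3.10% were. Dkc1, Ncl, Nop56 and Npm1 stood on both lists of lower genes. Npm1 had 140 FPKM in vivo and 292 FPKM at day 3 with IL-1β, a log2 ratio of -1.06, and 110 FPKM in vivo and 169 FPKM at day 3 without, a ratio of -0.61. With IL-1β it was counted lower, but not after scaling to equal medians (-0.999) or removal of the length trend (-0.78). Dkc1 had 29.4 FPKM in vivo and 51.3 FPKM at day 3 with IL-1β, and 23.8 FPKM in vivo and 40.8 FPKM at day 3 without. Nop56 had 115 FPKM in vivo and 180 FPKM at day 3 with IL-1β, and 84.8 FPKM in vivo and 140 FPKM at day 3 without.

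The snoRNP proteins had lower values in vivo throughout. All 4 box C/D proteins were below 0 in both arms, with medians of -0.72 with IL-1β and -0.42 without. All 4 box H/ACA proteins were below 0 in both arms too, with medians of -0.91 with IL-1β and -0.33 without. With IL-1β these ratios also moved with transcript length, at a Spearman correlation of 0.36 across 7814 genes and 0.48 across 39 of the set. With the length trend removed, the medians with IL-1β were -0.54 for box C/D and -0.59 for box H/ACA. The part of length was not tested. Gar1 had 17.9 FPKM in vivo and 55.5 FPKM at day 3 with IL-1β and was counted lower at a log2 ratio of -1.58. It was at -1.16 with the length trend removed. Without IL-1β it had 27.4 FPKM in vivo and 32.6 FPKM at day 3, with overlapping intervals at -0.24.

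Of the 9 pre-60S factors 8 were below 0 with IL-1β and 9 without, with medians of -0.25 and -0.53. Of the small subunit factors 8 of 10 were below 0 with IL-1β and 9 of 9 without, with medians of -0.19 and -0.48. Gnl3 had the lowest pre-60S ratio without IL-1β, at 15.5 FPKM in vivo and 31.2 FPKM at day 3, with intervals apart at -0.96. Tsr1 and Bop1 were near 0 with IL-1β, at -0.03 and 0.04.

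The RNA polymerase I group had different signs in the arms, a difference that was not tested. With IL-1β 5 of 6 ratios were above 0, with a median of 0.16, and without IL-1β 2 of 6 were, with a median of -0.25. After removal of the length trend 2 of 6 were above 0 with IL-1β, with a median of -0.11. Polr1b had 6.77 FPKM in vivo and 4.23 FPKM at day 3 with IL-1β, with overlapping intervals at 0.57. Without IL-1β it had 2.03 FPKM in vivo and 8.14 FPKM at day 3 and was counted lower at -1.59, but not with a pseudocount of 5 (-0.90). Polr1a, the largest subunit, was at 0.07 with IL-1β and 0.02 without.

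**Figure D5:**
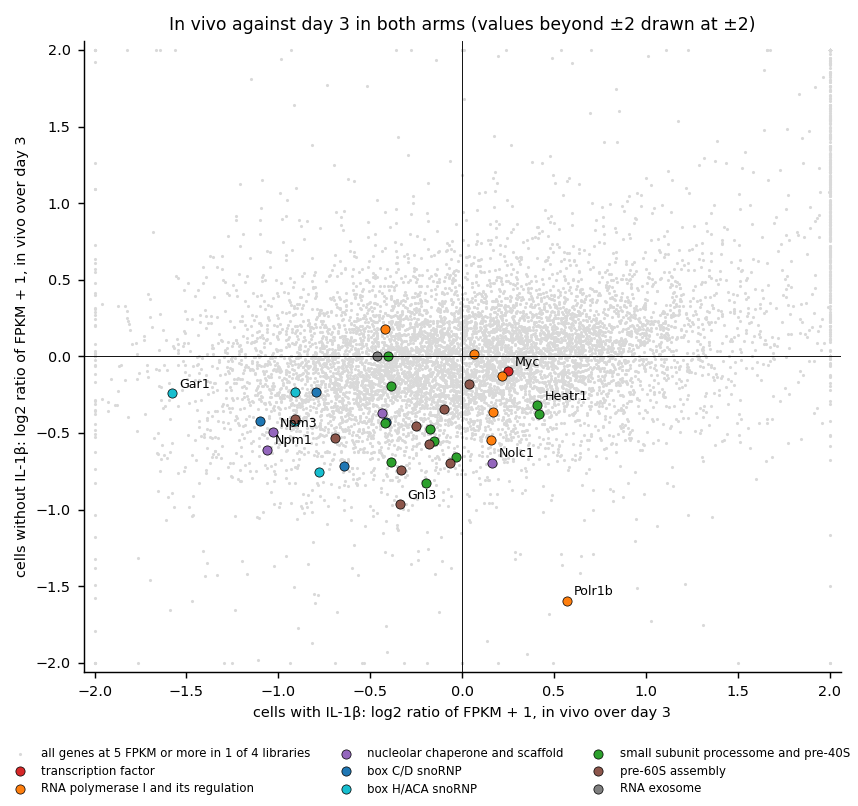
Log2 ratio of FPKM + 1 in vivo over day 3, with IL-1β (horizontal) and without (vertical), for the set coloured by role and for all genes at 5 FPKM or more in a poly(A) library in grey, with values beyond 2 drawn at 2. Most coloured points lie at lower left, with Gar1 farthest left at -1.58 and Polr1b lowest at -1.59, and Myc is close to the centre.

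In limma's moderated test of in vivo against day 3 with arm as covariate, 0 of 39 genes were called higher, where 4.26% of all genes were, and 0 lower, where 0.326% were. At an unadjusted p under 0.05, 2 were lower and 0 higher, where 11.9% of all genes passed in either direction. Npm1 differed by -0.83 ± 0.37 (SE), with a limma adjusted p of 0.363, and Gar1 by -0.91 ± 0.40 (SE), with a limma adjusted p of 0.369, each lower in both arms. Of the 39 differences 34 were below 0. The markers of other cells given above were higher in vivo than at day 3. With the libraries scaled to equal T cell identity genes, 29 of 39 ratios were below 0 with IL-1β and 35 of 37 without, the same counts as before scaling. The factors were only -0.03 with IL-1β and -0.05 without on the log2 scale, so these counts could hardly change. Such scaling does not take out transcripts of other cells, and their part in these ratios was not tested.

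Among the 38 genes above 0 in all 4 poly(A) libraries, 7 were highest in vivo with IL-1β and 1 in vivo without, while 23 were highest at day 3 with IL-1β and 7 at day 3 without. The lowest value fell in vivo without IL-1β for 30 of the 38. As a share of all FPKM the set took 0.353% with IL-1β and 0.285% without in vivo, and 0.452% with IL-1β and 0.394% without at day 3.

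Wider lists of the pathway, also chosen by name, were set beside these. Of 76 other pre-rRNA processing and assembly factors, 71 could be compared in vivo against day 3. With IL-1β 0 were counted higher, where 12.0% of all genes were, and 5 lower, where 5.87% were, which is near the background. Their median was -0.28, with 52 below 0. The lower ones with the largest ratios were Fcf1 (-1.73), Mrto4 (-1.61), Utp11l (-1.28) and Rpf2 (-1.18). Without IL-1β 0 were higher, where 2.13% of all genes were, and 1 lower, where 0.665% were, Pno1 at -1.08, with a median of -0.30 and 63 below 0. For IL-1β at day 3, 0 of 72 were higher, where 1.29% of all genes were, and 2 lower, where 2.15% were, Gnl3l (-1.09) and Urb1 (-1.03), with a median of 0.12. For IL-1β in vivo, 1 of 70 was higher, where 6.23% of all genes were, Ftsj3 at 1.00, and 0 lower, where 3.48% were, with a median of 0.20.

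Of 22 other genes known as Myc targets, 0 were counted higher in vivo against day 3 with IL-1β, where 12.0% of all genes were, and 3 lower, where 5.87% were. Their median was -0.74, with 20 below 0. Eif4a1, a translation initiation helicase, had 44.0 FPKM in vivo and 119 FPKM at day 3. Ran, the nuclear transport GTPase, had 61.9 FPKM in vivo and 162 FPKM at day 3. Hspe1, a mitochondrial chaperonin, had 47.0 FPKM in vivo and 106 FPKM at day 3. Without IL-1β none was counted in either direction, where 2.13% of all genes were higher and 0.665% lower. There the median was -0.47, with 20 below 0. None was counted for IL-1β at day 3 (median 0.31), where 1.29% of all genes were higher and 2.15% lower. The same held for IL-1β in vivo (median -0.07), where 6.23% of all genes were higher and 3.48% lower.

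The Myc network list holds partners and antagonists of Myc and factors related to them. Of its genes 4 of 8 compared were counted higher in vivo against day 3 with IL-1β, where 12.0% of all genes were. There 0 were lower, where 5.87% were. In the same comparison 14 of 14 epithelial, stromal and endothelial markers and 13 of 14 myeloid markers were counted higher, and their part in these values was not tested. Mxd4, an antagonist that competes for the partner Max, had 25.5 FPKM in vivo and 6.81 FPKM at day 3. Mxd1 had 28.8 FPKM in vivo and 10.7 FPKM at day 3. Mnt, also an antagonist, had 16.4 FPKM in vivo and 5.81 FPKM at day 3. Mlxip, which pairs with the Max-like protein Mlx, had 12.4 FPKM in vivo and 4.71 FPKM at day 3. Without IL-1β none of 9 was counted, where 2.13% of all genes were higher and 0.665% lower. There Mxd4 had 15.4 FPKM in vivo and 8.48 FPKM at day 3. The difference between the arms was not tested.

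Other RNA polymerase I factors and exosome subunits gave few calls. In vivo against day 3 with IL-1β, 2 of 16 polymerase factors were counted higher, where 12.0% of all genes were. There 2 of 11 exosome subunits were lower, where 5.87% were. Without IL-1β 1 of 16 and 1 of 11 were higher, where 2.13% were. For IL-1β at day 3, 1 of 16 and 1 of 11 were higher, where 1.29% were. For IL-1β in vivo 1 of 15 polymerase factors was higher, where 6.23% were, and 1 of 11 exosome subunits lower, where 3.48% were. Taf1d, a subunit of the polymerase I selectivity factor, was counted higher with IL-1β at day 3, with values of 77.7 FPKM with IL-1β and 37.2 FPKM in cells without. Taf1c of the same factor was counted higher in vivo against day 3 with IL-1β, at 10.8 FPKM in vivo and 4.37 FPKM at day 3. Ptrf, a transcript release factor that also coats caveolae, had 12.8 FPKM with IL-1β and 5.82 FPKM without in vivo, and 0.201 FPKM with IL-1β and 0 without at day 3. Exosc6 had 0 FPKM with IL-1β and 22.1 FPKM without in vivo, and 35.3 FPKM with IL-1β and 0 without at day 3. These exact 0s can be failed estimates, as said above, and they changed arm between the stages. Exosc8 had 36.8 FPKM in vivo and 98.5 FPKM at day 3 with IL-1β.

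Utp20 stayed under 5 FPKM in all libraries, which leaves 5 genes with CACGTG in the promoter window to compare. In vivo against day 3 their median log2 ratio was -0.10 with IL-1β and -0.45 without, against -0.40 with IL-1β and -0.43 without for the genes lacking it. For IL-1β their median was 0.38 in vivo, against 0.37 for the genes lacking it, and 0.03 at day 3, against 0.32.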

How the data were processed

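Gene FPKM and their bounds were made by the authors and used as deposited. The submitters' processing notes name TopHat and mm9. The TopHat version and the quantification tool are named in none of them. Entries with a status other than OK were left out (285 of 23700 per file), and FPKM and bounds were summed per symbol.

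Ratios were taken after adding a pseudocount of 1 to each FPKM. limma 3.58.1 (R 4.3.3) was run on log2(FPKM + 1) over 8901 genes with at least 5 FPKM in a poly(A) library. GENCODE M21 gave lengths, matched by symbol, and their trend was fitted by lowess (fraction 0.3). The longest transcript of a gene was used first. The median transcript length was added after those values had been seen, because some longest transcripts looked implausible, and both are reported. Python 3.11.15 with pandas 2.3.3 and statsmodels 0.14.6 served for the rest, and the rules were tested on simulated data.

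The genes and lists were chosen with earlier results of these data known. Named are Myc, every counted gene up to 8 per comparison, the 3 with ratios nearest to 0, genes listed at 0, those that changed direction, and up to 4 counted genes per other list. Genes with intervals apart, and examples of each role, were named after their values were seen. Of the listed symbols 5 were not matched.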

Additional observations from a re-analysis of the deposited data

Results flagged for a closer look

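Polr1b, the second largest subunit of RNA polymerase I, moved in opposite directions in both pairs of comparisons. Its log2 ratio with IL-1β over without was 1.36 in vivo and -0.81 at day 3. Its log2 ratio in vivo over day 3 was 0.57 with IL-1β and -1.59 without. These are the same 4 libraries seen in both ways, with 1 library a group, and the difference was not tested. All 4 values lay between 2.03 and 8.14 FPKM.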

How the results depend on the processing

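The median ratio of the set kept its direction in the 4 comparisons among poly(A) libraries under every alternative run. It ranged over 0.18 to 0.27 for IL-1β at day 3, 0.33 to 0.52 for IL-1β in vivo, -0.37 to -0.26 for in vivo against day 3 with IL-1β, and -0.46 to -0.37 without. Comparisons with the 1 h libraries depended on scaling, and the cause was not tested. The share of all genes counted was not taken under the alternatives, so the counts of genes higher or lower below have no background.

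For IL-1β at 1 h the median was -0.29 with equal medians, -0.25 with the length trend removed and -0.27 with median transcript lengths. There 2 genes were higher with no minimum and 1 lower with no interval criterion. For day 3 against 1 h with IL-1β the median was 4.92 and 2.42 with pseudocounts of 0.1 and 5, 1.74 with equal medians, 0.39 with the length trend removed and 0.51 with median lengths, with 7, 10 and 11 genes higher in the last 3 (with equal medians fewer genes reached 5 FPKM, 8 with ratios above 0 and 1 below), and Myc at -0.33, -0.73 and -0.88. Without IL-1β these medians were 5.08, 2.25, 0.92, 0.23 and 0.28, with 2, 6 and 6 genes higher (with equal medians, 8 compared and all above 0), and Myc at -0.41 and -0.46 in the last 2. Equal medians shifted these ratios by 3.32 with IL-1β and 3.46 without. After that scaling the median of all genes compared was 1.39 with IL-1β and 1.33 without. Without IL-1β the set, at 0.92, was thus below all genes. With the length trend removed the median of all genes was -0.04 with IL-1β and -0.03 without.

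For IL-1β in vivo, 5 genes were higher with equal T cell identity genes, a scaling that also put the median of all genes at 0.19. In vivo against day 3 without IL-1β, 2 were lower with a pseudocount of 0.1 and 0 with 5, where Polr1b was at -0.90. With IL-1β, 1 was lower with equal medians and 4 with no interval criterion. Npm1 was at -0.68 with median lengths. limma called 0 genes of the set higher with IL-1β with no minimum, with all 6 libraries, and with genes listed at 0 left out. Over all genes it called 0, 0 and 45 of 8506 higher in these settings.

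Replacing the longest by the median transcript length at day 3 gave 34 of 39 IL-1β ratios above 0 in place of 31, with Bysl and Exosc9 in both counts. The Spearman correlation was -0.61 in place of -0.53, and 4 of 6 RNA polymerase I genes were above 0 in place of 3. In vivo against day 3 with IL-1β the RNA polymerase I group's median was -0.20 in place of -0.11.

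No paired analysis was possible because the labels give no replicate numbers to pair by, beyond the stage and arm terms already in the limma fits. Each group is 1 library, and leaving out a library leaves no comparison. Depth is unknown, and no limit was set for genes listed at 0.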
